A study of Mus musculus with 5 samples.

Results

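Mouse trypsinogens and Spink1, the inhibitor that acinar cells make against trypsin, were measured by 10 probe sets of 28853 on Mouse Gene 1.0 ST arrays of newborn pancreas. They were chosen by gene symbol: every probe set annotated to Prss1, Prss2, Prss3, Try4, Try5, Try10, Gm5771, 2210010C04Rik or Spink1 (formerly Spink3 in mouse), alone or among several symbols. Of these 9 genes, 8 had a probe set of their own. Prss1 had none and was read only through 2 probe sets (10544342 and 10537650) that both carry the symbols Gm10334, Gm5771, Prss1 and Prss3, so the 9 trypsinogen probe sets are not 9 separate genes. The genes of the family are near-identical in places, and how far a probe set of one gene also reads another is uncertain.

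The Pdx1cKO pancreata were 3 samples at postnatal day 1, from mice bred from mice with a loxP-flanked Pdx1 gene and mice carrying Elastase-Cre, a recombinase driven by an elastase promoter that is active in exocrine cells. The control pancreata were 2 samples of the same age, labelled as carrying no recombination; the labels do not say which of the alleles or whether the Cre transgene they had. The series title places control and Pdx1cKO pancreata in the same litter, and no sex is given. Whole pancreas was extracted, so islet cells and proximal ducts, which Elastase-Cre does not target, contributed RNA to every array. The study's methods give the same numbers of mice, 3 Pdx1cKO and 2 control, so each array is taken as 1 mouse, and p-values measure the spread between these mice. With 2 controls the spread of the control group rests on a single difference.

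Trypsinogens are the inactive precursors of trypsin, made by acinar cells, packed in zymogen granules and activated in the gut by enteropeptidase. Trypsin in turn activates the other pancreatic zymogens, and Spink1, a Kazal-type inhibitor stored in the same granules, blocks trypsin that forms too early. In the mouse the trypsinogen genes lie in a cluster within the T cell receptor beta locus.

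RefSeq promoter windows were available for 6 of the 8 trypsinogen genes, from 250 bases before to 50 bases after the gene start (assembly GRCm38.p6, 300 bases each); Try5 and Try10 are named only. Windows of 4 genes are shown, because they belong to the trypsinogens with the largest fold changes below (Prss3, Gm5771), to the gene that could be read only through shared probe sets (Prss1), and to anionic trypsinogen (Prss2). Capitals mark TATAAA on the strand printed, the E-box CANNTG on either strand, which basic helix-loop-helix factors such as the acinar regulator PTF1A recognise, and GGGAAA on either strand, the core of the sites bound by RBPJ and RBPJL. The windows are 5′ to 3′ on the gene's strand, at chr6:41377564-41377863 (minus strand), chr6:41392106-41392405 (plus), chr6:41458680-41458979 (plus) and chr6:41521526-41521825 (plus).
Prss3: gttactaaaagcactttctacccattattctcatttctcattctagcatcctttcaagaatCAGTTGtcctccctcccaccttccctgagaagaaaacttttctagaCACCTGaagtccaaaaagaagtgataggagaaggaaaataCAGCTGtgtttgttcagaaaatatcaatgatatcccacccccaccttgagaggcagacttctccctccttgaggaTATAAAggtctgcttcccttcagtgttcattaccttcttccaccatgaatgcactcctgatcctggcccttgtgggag
Gm5771: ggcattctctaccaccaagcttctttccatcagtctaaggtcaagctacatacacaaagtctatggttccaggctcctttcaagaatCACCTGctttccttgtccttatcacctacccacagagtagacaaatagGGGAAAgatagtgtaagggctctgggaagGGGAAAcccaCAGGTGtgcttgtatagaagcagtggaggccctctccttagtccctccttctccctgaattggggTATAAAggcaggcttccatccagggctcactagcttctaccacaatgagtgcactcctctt
Prss1: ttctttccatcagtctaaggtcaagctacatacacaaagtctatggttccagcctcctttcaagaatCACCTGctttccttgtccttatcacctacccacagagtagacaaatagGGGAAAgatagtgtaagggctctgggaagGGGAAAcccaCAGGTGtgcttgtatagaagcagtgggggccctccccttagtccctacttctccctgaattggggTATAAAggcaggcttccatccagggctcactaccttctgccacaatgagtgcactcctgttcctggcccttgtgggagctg
Prss2: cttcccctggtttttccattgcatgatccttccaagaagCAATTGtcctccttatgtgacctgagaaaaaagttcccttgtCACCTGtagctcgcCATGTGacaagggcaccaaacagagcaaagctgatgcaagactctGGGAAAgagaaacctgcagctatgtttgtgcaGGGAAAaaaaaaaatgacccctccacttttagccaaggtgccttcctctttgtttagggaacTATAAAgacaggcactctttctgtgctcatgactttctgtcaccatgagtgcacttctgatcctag
TATAAA was present in 6 of 6 trypsinogen windows, against 8.32% of all 32851 RefSeq windows of this length. CANNTG was present in 6 of 6 and in 72.3% of all windows, and GGGAAA in 3 of 6 (Gm5771, Prss1 and Prss2) and in 25.2% of all. TAATTA, a longer form of the TAAT core recognised by homeodomain factors such as PDX1, was in 0 of 6 windows and in 5.29% of all. This says only that this longer string is not in these windows. TAAT itself was not counted, and its reverse complement ATTA occurs in the Prss3 window shown. GGGAAA followed by CANNTG within 25 bases on the same strand occurred in Gm5771 and Prss1 and in 2.98% of all windows.

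The windows of Gm5771 and Prss1 were nearly the same sequence: 274 aligned bases were identical and 6 differed (97.9% identity), and the longest shared run was 127 bases. Try4 shared 83.4% of aligned bases with Prss1 and 82.4% with Gm5771, and Prss2 shared 79.4% with Prss3. The window of 2210010C04Rik had 69.7% to 73.9% identity to the others, a range that also holds Gm5771 with Prss2 (72.6%). Its longest runs shared with them had 7 to 9 bases. All these percentages leave out gap bases: 40 for Gm5771 with Prss1, 94 for Prss2 with Prss3 and 108 to 124 for 2210010C04Rik. Whether the lower identities exceed those of unrelated windows was not tested. The longest run before the gene start common to Try4, Gm5771 and Prss1 had 16 bases, CCACAGGTGTGCTTGT. It was picked from these 3 windows, so its presence in them was fixed by the choice. No other RefSeq window held it (3 of 32851, 0.00913%), which says little for a run of this length. TATAAA began at -31 from the gene start in Try4 and Prss1, at -30 in 2210010C04Rik, at -28 in Prss3, at -16 in Prss2 and at -11 in Gm5771.

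The 5 arrays had similar overall intensity, with medians of 61.0 to 61.9 in Pdx1cKO and 61.0 to 61.2 in controls, on the linear scale of the deposited values. Log2 intensities correlated at 0.988 to 0.992 among the Pdx1cKO arrays and at 0.969 between the controls, so the controls differed from each other more than the Pdx1cKO arrays did. Control 1 correlated with the Pdx1cKO arrays at 0.9697 to 0.9777, each above its 0.9691 with control 2. Control 2 correlated with them at 0.958 to 0.969. Over the whole array the controls thus did not group together. The targeted gene Pdx1 read 48.4, 48.4 and 42.9 in Pdx1cKO and 67.9 and 112.7 in controls (log2 fold change -0.91, limma adjusted p = 0.392), without overlap; beta cells, which also express Pdx1, were part of the tissue. Marker lists of other tissues also differed. Summed intensity of 7 liver markers was 14466 to 35183 in Pdx1cKO and 4890 to 6221 in controls, with 7 of 7 higher in every Pdx1cKO array. Summed intensity of 8 granulocyte markers was 1259 to 3482 in Pdx1cKO and 418 to 429 in controls, with 8 of 8 higher. Of all probe sets, 10.5% were higher in every Pdx1cKO array than in every control. Summed intensity of 6 stomach markers was 355 to 396 in Pdx1cKO, against 281 in control 1 and 10633 in control 2. Intestine markers summed to 374 to 753 in Pdx1cKO, against 430 in control 1 and 3321 in control 2. The X-linked Xist read 622, 349 and 44.9 in Pdx1cKO and 53.4 and 33.5 in controls, and the groups thus held unequal shares of each sex. The part of these differences in the results on trypsinogens was not tested.

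All 10 probe sets were lower in every Pdx1cKO array than in every control array, a pattern that 12.2% of all probe sets showed. All 10 had a log2 fold change of -1 or less, which 1.01% of all probe sets had, and all 10 were among the 80 most negative of 28853 (ranks 10 to 80). The median log2 fold change of the members was -2.89, against -0.004 over all probe sets. In limma, 10 of 10 had an unadjusted p under 0.05 in the lower direction (background 5.51%). None passed an adjusted p of 0.05 over all probe sets, as was the case for the whole array (0% lower and 0% higher). Their adjusted p values ran from 0.135 to 0.288, and the smallest on the array was 0.107. Without control 1, 6 members passed the adjusted threshold, as did 2676 lower and 2100 higher probe sets of 28853. Without control 2, 8 members passed, beside 2895 lower and 1392 higher probe sets. These fits take the spread from the Pdx1cKO arrays alone. Every 95% confidence interval lay below 0. Because whole pancreas was used, fewer acinar cells and less RNA per acinar cell cannot be told apart.

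**Figure D1:**
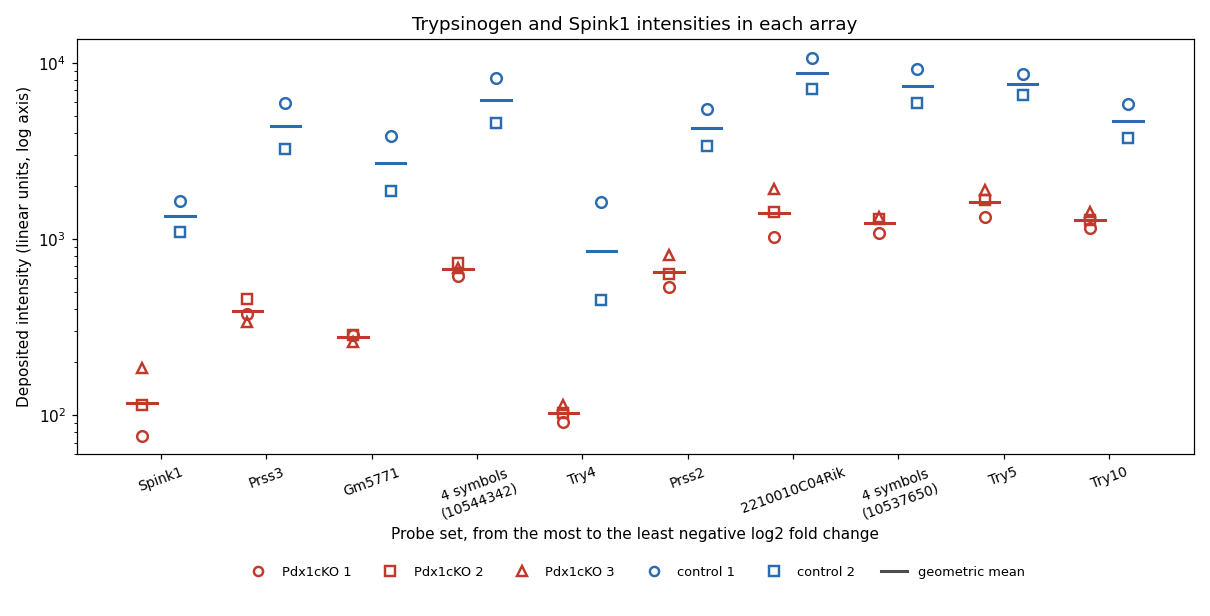
Deposited intensity (log axis) of each of the 10 probe sets in 3 Pdx1cKO and 2 control arrays, one point per array with the mean of each group. All Pdx1cKO points lie below all control points, and the distance between the nearest points of the groups runs from 2.63-fold (Try10) to 7.07-fold (Prss3).

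Spink1 (probe set 10458704) read 76.6, 113.8 and 185.5 in Pdx1cKO, against 1652.8 and 1092.9 in controls. Its highest Pdx1cKO value was 5.89-fold below its lowest control. Its log2 fold change was -3.52 (SE 0.476, 95% confidence interval -4.89 to -2.15, limma adjusted p = 0.189), an 11.4-fold lower level that left 8.73% of the control mean (geometric, as for all percentages of control here). It varied most among the Pdx1cKO arrays, by 2.42-fold between the lowest and the highest, with a log2 SD of 0.639 in Pdx1cKO and 0.422 in controls.

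The largest trypsinogen difference was in Prss3 (10544338), a trypsinogen gene, with 377.7, 457.8 and 338.7 in Pdx1cKO and 5951 and 3237 in controls. The log2 fold change was -3.50 (SE 0.331, interval -4.45 to -2.54, limma adjusted p = 0.138), or 11.3-fold lower. Gm5771 (10537642), a predicted trypsinogen gene, read 286.0, 285.5 and 259.2 in Pdx1cKO, against 3858 and 1876 in controls. It was 9.73-fold lower (log2 fold change -3.28, SE 0.355, limma adjusted p = 0.148) and the most even member among Pdx1cKO arrays, with 1.10-fold between the lowest and the highest. Try4 (10537634) read 91.9, 102.4 and 114.6 in Pdx1cKO, against 1624 and 451.9 in controls. Its 2 controls differed by 3.59-fold, the widest of the members, and its log2 fold change of -3.06 had the widest error (SE 0.632, interval -4.88 to -1.24, limma adjusted p = 0.288). Without control 1 its log2 fold change was -2.14, and without control 2 it was -3.99.

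Both probe sets shared by Gm10334, Gm5771, Prss1 and Prss3 were lower as well. Probe set 10544342 read 618.4, 732.2 and 683.5 in Pdx1cKO, against 8191 and 4574 in controls (log2 fold change -3.18, SE 0.295, limma adjusted p = 0.135). Probe set 10537650 read 1086, 1306 and 1340 in Pdx1cKO, against 9253 and 5918 in controls (log2 fold change -2.58, SE 0.244, limma adjusted p = 0.138). The first was 9.05-fold lower and the second 5.98-fold lower, although both are annotated to the same 4 symbols. Prss1 itself, a major trypsinogen of the mouse pancreas, has no value apart from these.

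Prss2 (10537627), anionic trypsinogen, read 537.1, 633.9 and 809.8 in Pdx1cKO, against 5461 and 3360 in controls. It was 6.58-fold lower (log2 fold change -2.72, SE 0.310, interval -3.61 to -1.83, limma adjusted p = 0.157). 2210010C04Rik (10544326), the mouse cationic trypsinogen, read 1030, 1432 and 1913 in Pdx1cKO, against 10695 and 7146 in controls. It was 6.19-fold lower (log2 fold change -2.63, SE 0.360, interval -3.66 to -1.59, limma adjusted p = 0.191). In both genes, as in every other member, the groups were separated by more than the whole range of either group on the log2 scale.

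The smallest differences were in Try5 and Try10, neither of which has a promoter window in the table. Try5, 2210010C04Rik and both shared probe sets were within 1 log2 unit of the highest intensity on an array in control 1 (15581). Whether signal near the top of the range compressed their fold changes, and their differences from Spink1, was not tested. Try5 (10544333) read 1336, 1663 and 1897 in Pdx1cKO, against 8665 and 6615 in controls. It was 4.69-fold lower (log2 fold change -2.23, SE 0.217, interval -2.85 to -1.60, limma adjusted p = 0.141) and kept 21.3% of the control mean. Try10 (10537638) read 1163, 1284 and 1425 in Pdx1cKO, against 5848 and 3753 in controls. It was 3.64-fold lower (log2 fold change -1.86, SE 0.238, interval -2.55 to -1.18, limma adjusted p = 0.175) and kept 27.5%.

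**Figure D2:**
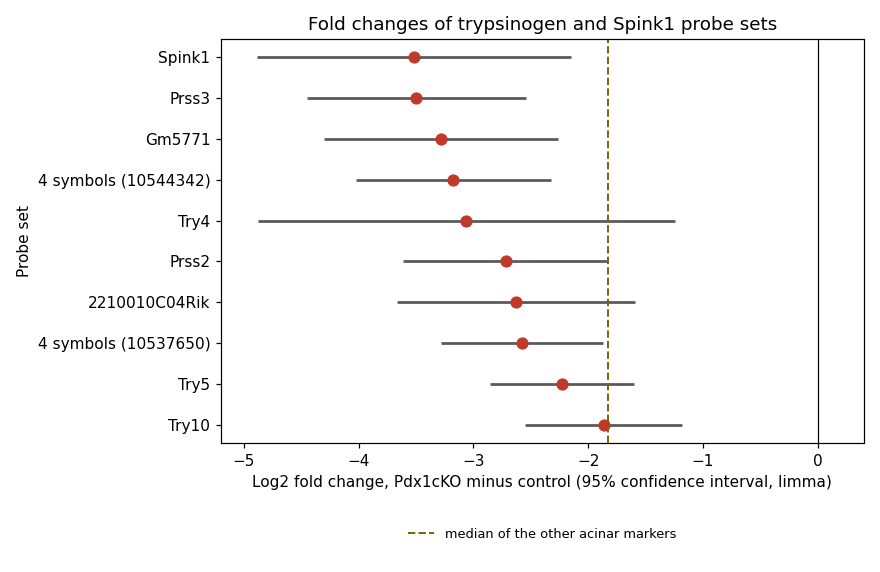
Log2 fold change (Pdx1cKO over control) of the 10 probe sets with 95% confidence intervals from limma. Every interval lies below 0, from Spink1 at -3.52 to Try10 at -1.86, and neighbouring intervals overlap.

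The fold change of each trypsinogen was set against that of Spink1 within arrays, in 9 comparisons with an exact two-sided permutation test over the 10 assignments of 5 arrays, whose smallest possible p is 0.1. Prss3 differed from Spink1 by 0.02 on the log2 scale (exact p = 1) and Gm5771 by 0.24 (exact p = 0.7). The remaining differences were 0.34 for probe set 10544342, 0.45 for Try4, 0.80 for Prss2, 0.89 for 2210010C04Rik, 0.94 for probe set 10537650, 1.29 for Try5 and 1.65 for Try10. The last 5 had every Pdx1cKO array above every control array. For 2210010C04Rik, Try5 and Try10 the exact p was 0.1 (0.3 after Benjamini-Hochberg adjustment over 9), the smallest this design allows. Try10 minus Spink1, relative to the control mean, was 2.12, 1.69 and 1.14 in Pdx1cKO and 0.02 and -0.02 in controls. For Prss3 the same quantity was 0.59, 0.30 and -0.84 in Pdx1cKO and 0.14 and -0.14 in controls, so the arrays did not keep 1 direction. Without Pdx1cKO 1 the difference from Spink1 was -0.269 for Prss3 and -0.0964 for Gm5771, and without control 2 it was -0.170 for Try4, so the order of these 4 genes was not settled.

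Among the Pdx1cKO arrays, 7 of the 10 probe sets were highest in Pdx1cKO 3 and 8 were lowest in Pdx1cKO 1. Prss3 and Gm5771 were the exceptions at the low end, both lowest in Pdx1cKO 3. Relative to the control mean on the log2 scale, the median member stood at -3.15, -2.91 and -2.66 in Pdx1cKO 1, 2 and 3, and at 0.336 and -0.336 in controls 1 and 2. Control 1 was above control 2 in 10 of 10 members, by 1.31-fold to 3.59-fold. The 8 other acinar markers kept the same order, with 8 of 8 highest in Pdx1cKO 3, 8 of 8 lowest in Pdx1cKO 1 and 8 of 8 higher in control 1. Liver markers were lowest in Pdx1cKO 3 in 7 of 7 and highest in Pdx1cKO 2 in 6 of 7, and islet markers were lowest in Pdx1cKO 3 in 6 of 6. The median log2 SD of the members was 0.193 in Pdx1cKO and 0.476 in controls. Over the 7214 probe sets above the upper quartile of mean level, where all 10 members lie, it was 0.0690 in Pdx1cKO and 0.154 in controls.

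**Figure D3:**
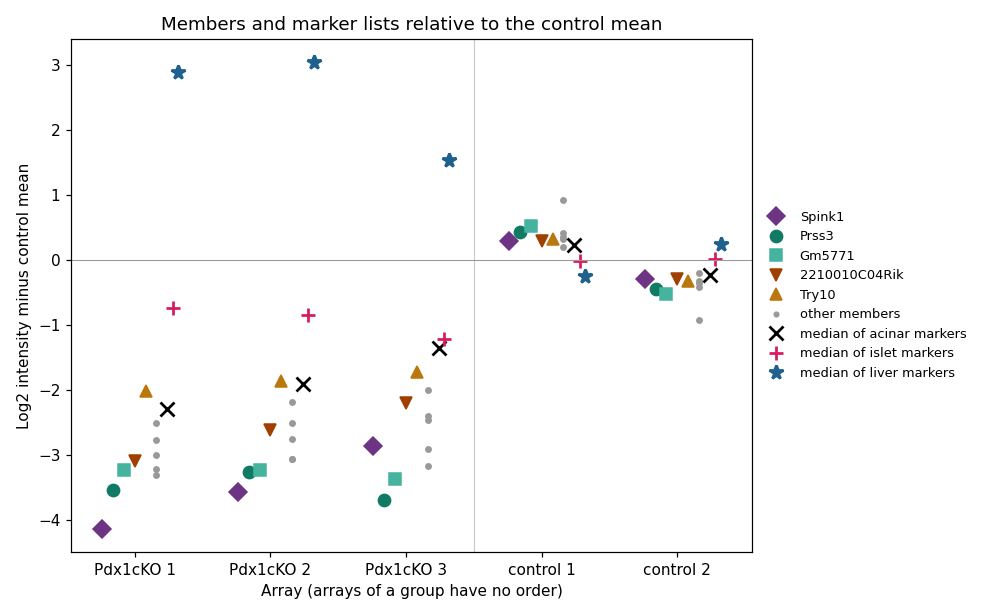
Log2 intensity minus the control mean in each array for the members and for the medians of acinar, islet and liver marker lists (one position per array, Pdx1cKO left of control). Members lie below 0 in all 3 Pdx1cKO arrays, and the liver median stands at 2.90, 3.05 and 1.54 in Pdx1cKO and at -0.25 and 0.25 in controls.

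Other secreted acinar products were also lower. All 8 of 8 other acinar markers (of 11 listed) were below every control, against 12.2% of all probe sets. All 8 had an unadjusted limma p under 0.05 in the lower direction, against 5.51% of all. Their median log2 fold change was -1.83, with a range of -4.62 to -1.30. The largest differences were in the elastases: Cela1 at -4.62 (limma adjusted p = 0.141), Cela3b at -2.56 (limma adjusted p = 0.254) and Cela2a at -2.53 (limma adjusted p = 0.232). Members had a median of -2.89, and the difference between the lists was not tested. Ctrb1, Cela3b and Clps, the brightest of the 8 in control 1, read 12080, 11742 and 11510 there. The highest intensity on that array was 15581. Cela1, the dimmest of the 8 in control 1, read 4186. Whether signal near the top of the range compressed the fold changes of these markers was not tested. Summed intensity of the 8 was 14463, 17592 and 25064 in Pdx1cKO, against 77865 and 56051 in controls. The 6 islet markers had a median of -0.97, and 6 of 6 also lay below every control with an unadjusted limma p under 0.05.

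Of the genes for proteins that activate or degrade trypsinogen, 6 of 7 had smaller fold changes than every member. Ctrb1 was among these, and whether its signal near the top of the range compressed its fold change was not tested. Of 7 probe sets, 3 had an unadjusted limma p under 0.05 in the lower direction, against 5.51% of all probe sets. Below every control lay 4, against 12.2% of all, and the median log2 fold change was -0.22. Ctrl, a chymotrypsin-like protease, read 79.8, 109.9 and 265.2 in Pdx1cKO, against 9140 and 4525 in controls (log2 fold change -5.60, limma adjusted p = 0.172). Ctrb1, a chymotrypsinogen also counted among the acinar markers, whose product degrades trypsinogen in mouse, read 4152, 4570 and 5636 in Pdx1cKO, against 12080 and 11366 in controls (-1.30, limma adjusted p = 0.162). Ctrc, whose human counterpart degrades trypsinogen, read 44.5, 46.3 and 49.9 in Pdx1cKO, against 68.5 and 173.9 in controls (-1.22, limma adjusted p = 0.522). The enteropeptidase gene Tmprss15 and the lysosomal cathepsins Ctsb, which activates trypsinogen, Ctsl, which degrades it, and Ctsd had log2 fold changes of -0.22, -0.21, 0.19 and -0.15. Tmprss15, also among the 6, read 22.5, 23.2 and 23.0 in Pdx1cKO, against 23.2 and 30.7 in controls. These values were under the lower quartile of intensity of every array, where a change could hardly be seen.

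Other protease inhibitors were counted beside Spink1. Of 12 other Kazal-type Spink probe sets, 10 read under the lower quartile of intensity (31.2 to 31.4 in Pdx1cKO, 31.8 to 31.9 in controls) in every array, close to the lowest values of the arrays (at most 18.3). Little change could be seen in these 10. The log2 fold changes of all 12 ran from -0.33 to 0.06. Spink4 read 63.5, 63.3 and 63.4 in Pdx1cKO, against 49.5 and 128.6 in controls (-0.33), and overlapped. Next in size were Spink6, with 26.36, 26.95 and 25.96 in Pdx1cKO, against 31.8 and 26.9 in controls (-0.15), and Spink5, with 24.60, 23.99 and 24.57 in Pdx1cKO, against 27.4 and 25.8 in controls (-0.13). Of 10 measured inhibitors of trypsin-like proteases outside that family, 8 were above every control, against 10.5% of all probe sets, and 6 had an unadjusted p under 0.05 in the higher direction, against 4.67%, with a median log2 fold change of 2.59. Serpina1c, an alpha-1-antitrypsin made by liver, read 527.2, 850.3 and 117.6 in Pdx1cKO, against 38.8 and 34.0 in controls (log2 fold change 3.37, limma adjusted p = 0.420). Pzp, an alpha-2-macroglobulin, read 1623, 2822 and 627.2 in Pdx1cKO, against 173.7 and 152.6 in controls (3.13, limma adjusted p = 0.335). Both were lowest among Pdx1cKO arrays in Pdx1cKO 3, as the liver markers were. Serpini2, a serpin of acinar cells, was lower without overlap, with 22.6, 23.4 and 23.3 in Pdx1cKO, against 982.4 and 307.5 in controls (-4.57, limma adjusted p = 0.172). Its Pdx1cKO values were under the lower quartile of each array and near the lowest values measured, so the size of this fold change is uncertain and may be understated.

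Of 7 measured acinar transcription regulators, Pdx1 among them, 6 lay below every control, against 12.2% of all probe sets, and 5 had an unadjusted p under 0.05 in the lower direction, against 5.51%, with a median log2 fold change of -1.004 and Gata6 the exception at 0.33. Bhlha15 (Mist1), a regulator of secretory granules, read 61.6, 53.6 and 46.4 in Pdx1cKO, against 305.0 and 120.0 in controls (-1.84, limma adjusted p = 0.364). Rbpjl, the acinar partner of PTF1A, read 76.2, 83.0 and 89.0 in Pdx1cKO, against 253.5 and 142.3 in controls (-1.20, limma adjusted p = 0.347). Nr5a2 read 95.6, 111.2 and 91.6 in Pdx1cKO, against 336.4 and 141.6 in controls (-1.14, limma adjusted p = 0.522).

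Genes whose pattern over the 5 arrays was most like that of Spink1, by the Euclidean distance of log2 values from the control mean among single-symbol probe sets, were Pdia2, a pancreatic protein disulfide isomerase (distance 1.00), Prss3 (1.09), Gm5771 (1.13), Zg16, a zymogen granule protein (1.34) and Try4 (1.36). Pdia2 read 195.9, 333.0 and 509.4 in Pdx1cKO, against 3842.3 and 1705.4 in controls. Closest to 2210010C04Rik, the brightest single-symbol trypsinogen in controls, were the elastases Cela2a (0.281) and Cela3b (0.294), Prss2 (0.285), Gm5409 (0.514), a pseudogene with a Try10-like synonym, and Nupr1 (0.571).

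In the RefSeq gene order of GRCm38.p6, 7 of the 8 protein-coding genes from Try4 to Prss2 are listed trypsinogens, and 33 T cell receptor beta variable segments and pseudogenes lie between 2210010C04Rik and Try4. Of 8 measured flanking genes, 4 read under the lower quartile of every array, where a lower level could hardly be seen, and no summary of the flanks is given. Ephb6, next after Prss2, read 107.0 in each Pdx1cKO array, against 123.1 and 94.7 in controls (-0.01). Kel read 77.7, 116.9 and 57.1 in Pdx1cKO, against 44.0 and 46.9 in controls (0.82). Trpv6, at -1.84, read 33.7, 36.3 and 38.6 in Pdx1cKO and 43.5 in control 1, and was high only in control 2, at 385.6. The T cell receptor segment Trbv1 read 43.0, 44.8 and 44.8 in Pdx1cKO, against 44.8 and 49.4 in controls (-0.09).

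**Figure D4:**
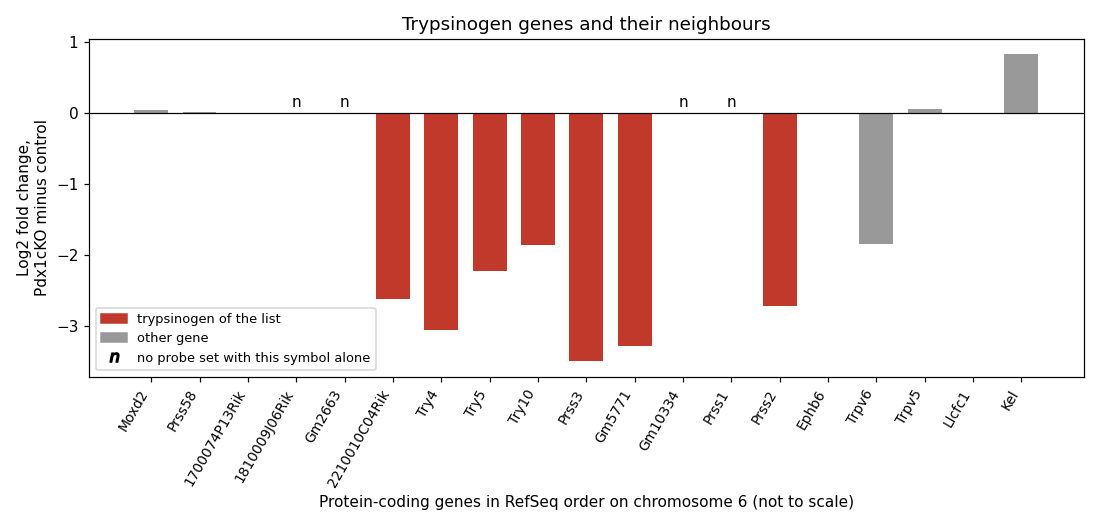
Log2 fold change (Pdx1cKO over control) of the measured genes of the trypsinogen cluster and its flanks, in gene order and not to physical distance. The trypsinogens lie between -3.50 and -1.86, and the 8 flanking genes, of which 4 read near the lowest intensities of the arrays, between -1.84 (Trpv6) and 0.82 (Kel).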

How the data were processed

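Total RNA of whole pancreas was measured in 5 samples, each on its own Affymetrix array (Mouse Gene 1.0 ST). The values used are the processed linear intensity of each probe set as deposited by the authors; the sources used here name GeneSpring GX as software but not the normalization. Groups came from the genotype label. Log2 of the deposited intensities, with no pseudocount and no filter, was fitted with limma 3.58.1 (R 4.3.3; lmFit and eBayes) over all 28853 probe sets, Pdx1cKO against control, with Benjamini-Hochberg adjustment over all of them and a threshold of 0.05. Differences from Spink1 were compared by exact permutation. Platform annotation gave 1 symbol to 21789 probe sets, several to 1621 and none to 5443. Probe sets were named by the member symbols. Of each companion list, the 3 with the largest absolute log2 fold change are given, with a few others chosen after their values were seen. The members and lists were chosen with earlier results of these data known. Alternatives were median scaling, quantile normalization, an offset of 16, filters on dim probe sets, averaging probe sets of a gene, array weights, trended robust eBayes, a replicate block, the methods' t-test and leaving out each array. Promoter windows came from RefSeq. Scripts used Python 3.11.15. The number of arrays limits the precision.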

Additional observations from a re-analysis of the deposited data

How the results depend on the processing

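All 10 members kept their direction and stayed apart from the controls under median scaling and under quantile normalization. The other alternatives reuse the same log2 values, add a constant or leave out an array. None of these can make separated groups overlap, so the same outcome there (8 of 8 genes when probe sets were averaged) was fixed in advance. The count at an adjusted p under 0.05 was 0 in every fit that kept both controls. Fits without control 1 or control 2 take the spread of the single control left from the Pdx1cKO arrays. Leaving out each array moved the median log2 fold change of the members between -3.33 and -2.35. The methods' t-test gave 10 members at an unadjusted p under 0.05 and 0 after Benjamini-Hochberg adjustment, and 6 lower and 3 higher calls over the array. With replicate number as a block, the median was -3.01, and 9 members had an unadjusted p under 0.05 and 0 an adjusted one. No control has replicate number 3, so Pdx1cKO 3 was alone in its block. The fold changes of this fit therefore equal those without Pdx1cKO 3. Deviations of same-numbered arrays correlated at 0.0088 and -0.0554. With 2 controls the deviations of control 1 mirror those of control 2, so these values cannot show whether same-numbered arrays were paired.

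The order of Spink1 and the nearest trypsinogens was not stable. The difference of Prss3 from Spink1 was -0.105 with an offset of 16 and ran from -0.269 to 0.447 when each array was left out. The same range was -0.0964 to 0.612 for Gm5771 and -0.170 to 1.08 for Try4. The cause was not tested.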

Other observations

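Other Prss genes were taken by symbol alone. Of their 36 probe sets, 3 had an unadjusted limma p under 0.05 in the lower direction (5.51% of all probe sets did). In the higher direction 1 did (4.67% of all). These shares were near the background, and the median log2 fold change was -0.01. Prss35 read 318.7, 290.4 and 365.3 in Pdx1cKO, against 137.5 and 130.0 in controls (log2 fold change 1.27, limma adjusted p = 0.133). Prss8 (prostasin), a membrane protease of epithelia, read 222.5, 242.3 and 149.7 in Pdx1cKO, against 489.1 and 412.3 in controls (-1.16, limma adjusted p = 0.314). Prss32 read 48.3, 48.3 and 41.5 in Pdx1cKO, against 47.8 and 223.4 in controls (-1.17, limma adjusted p = 0.522), and was high only in control 2. Of 3 measured protease-activated receptors, the thrombin receptor F2r read 387.4, 400.2 and 468.4 in Pdx1cKO, against 271.3 and 248.3 in controls (0.68, limma adjusted p = 0.212). F2rl2 read 47.8, 60.2 and 42.8 in Pdx1cKO, against 42.4 and 35.7 in controls (0.36), and F2rl3 66.2, 63.8 and 62.2 in Pdx1cKO, against 59.7 and 63.8 in controls (0.05).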
